A study of Mus musculus with 4 samples.

Results

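Immunoglobulin gene segments are the building blocks from which B cells assemble antibody genes. They were taken here as the GENCODE genes of the mouse mm10 genome whose type begins with IG_ and is not a pseudogene, which gave 268 of 55450 annotated genes. The heavy-chain locus on chromosome 12 held 146 of them, the kappa light-chain locus on chromosome 6 held 108, and the lambda light-chain locus on chromosome 16 held 12. The other 2, Gm17472 and Gm20730, lie on chromosome 6 outside the kappa locus and had no peak in any library. Chromatin accessibility was measured by DNase-seq, in which the enzyme DNase I cuts open DNA and the cuts are mapped, in natural killer primary cells of adult, virgin female B6CASTF1/J mice (the cross of C57BL/6 with CAST) at 2 months of age. There was 1 group of 4 libraries, numbered 1 to 4 as the labels number them. All 4 carry a single donor identifier, and the labels give neither the tissue nor the sorting of the cells. A group of this kind allows no test between conditions, so the values that follow are descriptions, with mean ± SD over the libraries (n = 4).

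In developing B cells, the recombinase RAG1/RAG2 joins a V, a D and a J segment of the heavy chain, or a V and a J segment of a light chain, next to a constant (C) gene. It cuts at a recombination signal sequence that flanks each segment, made of a heptamer (CACAGTG), a spacer and an A-rich nonamer (ACAAAAACC). Natural killer cells are lymphocytes that do not assemble antibody genes and do not need RAG to form. Enhancers are known in the intron between the heavy-chain J and C genes and in a 3′ regulatory region beyond Igha, the last heavy-chain constant gene.

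Accessible sites were found in the heavy locus, mostly over the 3′ ends of V segments and beyond Igha, while the kappa and lambda segments were nearly free of peaks. Of the 3′ ends open in at least 1 library, 37 of 47 held the hexamer ACCACA inside the signal sequence. Its letters are known as the core of a RUNX factor's binding site. Of all 115 heavy V segments, open or not, 46 held it. Among the 3′ ends open in at least 3 libraries it was 14 of 17. Without library 3, 23 of the 29 3′ ends open in at least 1 library held the hexamer. The pattern was noticed after the peaks had been seen. The sequences that carry this pattern are printed first, read 5′ to 3′ on the minus strand of GRCm38 (mm10) from 12 bases before the heptamer to the end of the nonamer, with the 6 bases at the hexamer's place in capitals. The first 8 are the hexamer-bearing segments with the highest mean peak signal over the signal sequence, and the last 3 are Ighv1 segments with a single different base there and no peak over it in any library. For every heavy V segment with the hexamer it began at base 13 counted from the first base of the heptamer.
Ighv14-2: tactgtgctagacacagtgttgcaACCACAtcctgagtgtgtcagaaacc
Ighv9-2: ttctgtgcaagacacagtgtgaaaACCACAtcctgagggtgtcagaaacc
Ighv9-4: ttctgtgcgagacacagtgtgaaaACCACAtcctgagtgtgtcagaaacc
Ighv1-11: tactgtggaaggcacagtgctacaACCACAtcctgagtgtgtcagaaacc
Ighv1-12: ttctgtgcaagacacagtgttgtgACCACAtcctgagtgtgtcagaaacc
Ighv1-54: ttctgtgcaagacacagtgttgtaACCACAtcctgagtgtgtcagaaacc
Ighv14-3: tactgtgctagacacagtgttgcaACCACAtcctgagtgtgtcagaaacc
Ighv1-74: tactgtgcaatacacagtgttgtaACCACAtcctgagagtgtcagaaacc
Ighv1-18: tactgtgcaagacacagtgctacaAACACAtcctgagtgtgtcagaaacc
Ighv1-19: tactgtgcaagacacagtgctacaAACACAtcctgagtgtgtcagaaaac
Ighv1-20: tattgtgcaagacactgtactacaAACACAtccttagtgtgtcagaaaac

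The depth of the peak lists differed between libraries. The longer of each library's 2 peak lists held 44113, 47496, 69168 and 36285 peaks in libraries 1 to 4, and its peaks had a median signal of 0.922 to 1.08. Library 3 had the most peaks and library 4 the fewest, which bears on every count below. Of 12 natural killer cell marker genes, 7 had a peak within 1 kb of the annotated 5′ end in at least 3 libraries, and their summed signal was 24.0, 26.5, 66.4 and 22.7 in libraries 1 to 4. All 12 were highest in library 3, and Klrb1c, which encodes NK1.1, and Gzma, a granzyme, had a peak only there. Library 3 was also highest at 11 of 16 genes of V(D)J recombination, and at 3 of the 15 B cell marker genes below. Over the 36595 regions of the autosomes and X with a peak in at least 3 libraries, library 3 had a median ratio to the mean of the others of 1.52. Of 15 B cell marker genes, 8 had such a peak in at least 3 libraries, with a summed signal of 13.6, 19.4, 13.8 and 13.8. Over all protein-coding genes, 50.4% had such a peak in at least 3 libraries. The counts for the natural killer and B cell markers lay near that share. Ebf1 (1.75 ± 0.668) and Pax5 (0.962 ± 0.449), the factors of B cell identity, had a promoter peak in all 4 libraries, while Fcer2a, Spib and Vpreb3 had none in any. Of 7 plasma cell marker genes, 3 had a promoter peak in at least 3 libraries, with summed signals of 10.5 to 17.7, and Jchain, Mzb1 and Tnfrsf17 had none. Of 12 T cell marker genes, 3 did, with summed signals of 2.46 to 4.45, namely Bcl11b and Lef1 in all 4 and Cd3g in libraries 1 to 3, while Cd3e, Cd3d, Cd4 and Cd8a had none. Of 8 myeloid marker genes, 3 did, Spi1, Cebpa and Itgam, each in all 4 libraries, with summed signals of 4.96, 5.80, 10.3 and 5.48. Lyz2, Csf1r, Cd14, Adgre1 and Mpo had no such peak in any library. The plasma cell, T cell and myeloid counts lay below the share of 50.4%. Whether other cells were present in the samples, and what part they would have in the immunoglobulin sites, was not tested. In these bulk samples, a smaller share of cells with an open site and a less open site in each cell cannot be told apart.

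A segment was counted as open where a peak of the longer list lay within 1 kb of it, and as recurrent where that held in at least 3 libraries. Of the 268 segments, 30, 30, 55 and 21 were open in libraries 1 to 4, and 204 were open in none. The recurrent segments numbered 21, or 7.84%, against 3.23% of all 2.5 kb bins of the autosomes and X chromosome and 50.4% of protein-coding genes (peak within 1 kb of the 5′ end). The T cell receptor segments, the other gene set assembled by RAG, stood at 8.85% (20 of 226), and the immunoglobulin pseudogenes at 3.66% (6 of 164). The share over all segments was thus near that of the T cell receptor segments, and its makeup by locus was uneven. V segments of the heavy chain supplied 20 of the 21 recurrent segments, and the remaining one was Ighj4.

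By kind of segment, the V genes of the heavy chain were open in 28, 26, 47 and 17 of 115 cases in libraries 1 to 4, a mean of 25.7% ± 11.0. Recurrent peaks were found at 17.4% of them. In the kappa locus, 1, 3, 2 and 1 of 102 V segments were open (1.72% ± 0.939), and none of them recurrently. The heavy V share lay above the kappa V share in every library. Over the autosomes and X, 3.23% of 2.5 kb bins had a peak in at least 3 libraries, and a share of bins per library was not counted. How far near-identical copies hide peaks at kappa V segments was not measured. Of the 3 lambda V segments, none was open. Among 19 D segments, only Ighd4-1 was open, in library 3 alone. Of the 4 heavy J segments, 1 was open in libraries 1, 2 and 4 and 3 in library 3, and none of the 5 kappa J segments was open in any library. Of 13 C genes, 2 heavy ones were open in library 3, Ighd and Ighg1, and 1 lambda one, Iglc2, in library 4.

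**Figure D1:**
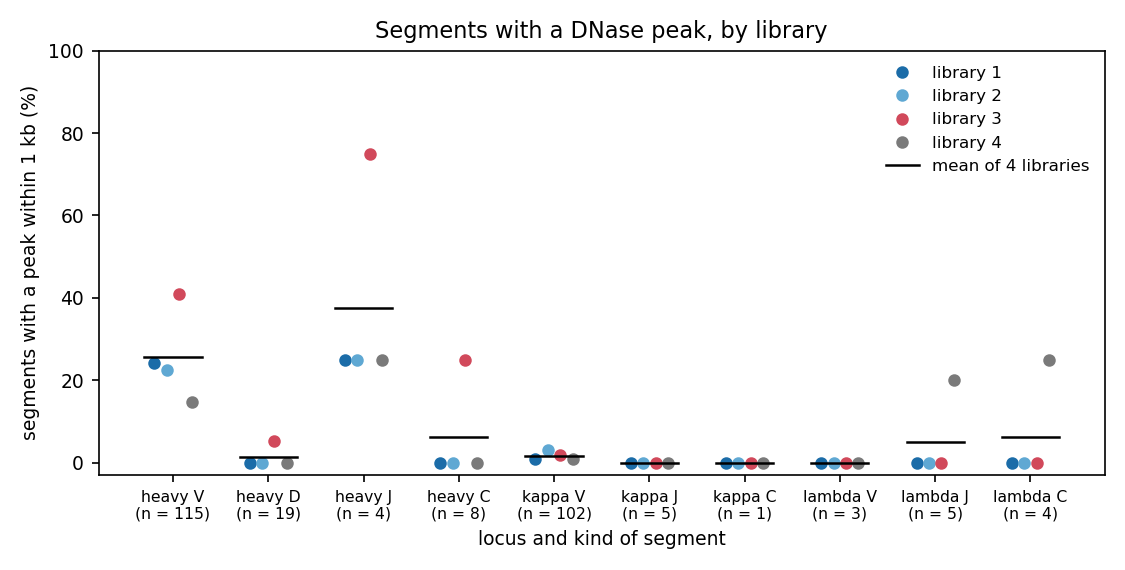
Percent of segments (y axis) of each kind and locus (x axis) with a peak within 1 kb; each point is a library and the bar is the mean of the 4. Heavy V segments lie between 14.8% and 40.9%, kappa V segments between 0.980% and 2.94%, and library 3 is the highest for each kind of heavy segment.

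Footprints, short stretches protected from DNase I that the authors called within each library, and bases whose cutting rate had a low false discovery rate (FDR) were counted in the same way. A footprint within 1 kb was listed for 21, 19, 45 and 12 of the 268 segments, recurrently for 12 (4.48%), against 2.74% of the 2.5 kb bins. All 12 were heavy V segments. In all 4 libraries, 5 segments had one: Ighv11-1, Ighv14-3, Ighv9-2, Ighv1-12 and Ighv1-54. A base listed with an FDR under 0.05 lay within 1 kb of 34, 32, 60 and 22 segments, recurrently of 25 (9.33%), against 3.62% of the bins. Those 25 were 24 heavy V segments and Ighj4. Of the 14 V segments with such a base in all 4 libraries, 1 had a peak in fewer than 3, Ighv1-47, and none lacked a peak altogether.

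Across the loci, each taken from the first to the last segment plus 50 kb on both sides, overlapping peaks of the 4 libraries were merged into regions. The heavy locus of 2846 kb held 130 regions, 47 of them recurrent, which is 1.65 recurrent regions per 100 kb against 1.39 over the autosomes and X. Library 3 alone accounted for 52 of the 130. The kappa locus of 3271 kb held 26 regions with 5 recurrent, or 0.153 per 100 kb. In the 299 kb lambda locus there were 6 regions, 3 of them recurrent, or 1.00 per 100 kb. Without the flanks the densities were 1.27, 0.0946 and 1.51, so the heavy locus lay above the genome's density with its flanks and below it without them, and the lambda locus the reverse. The kappa locus lay far below it either way.

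Summed over the heavy locus, the peak signal was 59.5, 62.3, 121 and 30.8 in libraries 1 to 4, over 10865, 10043, 23080 and 5675 covered bases. As a share of each library's total peak signal this was 0.0673%, 0.0580%, 0.0766% and 0.0361%. Library 3 was highest on both scales and library 4 lowest. In the kappa locus the sums were 6.04, 8.06, 7.80 and 3.11 over 1404, 1965, 3040 and 668 bases. For the lambda locus they were 1.82, 3.54, 0.208 and 2.87 over 424, 1184, 102 and 818 bases. Library 3, the highest in the heavy locus, was therefore the lowest in the lambda locus, where the next lowest library lay 8.77 times above it.

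Beyond Igha, the 50 kb flank held 9 recurrent regions, the strongest of which had the highest mean signal of the whole heavy locus. That region, chr12:113222121-113222340, lies 32599 bases beyond the 3′ end of Igha and overlaps no annotated gene. Its signal was 7.92, 9.39, 10.3 and 6.22 in libraries 1 to 4 (8.45 ± 1.78). In library 3 alone, the outer flank region that overlaps the gene Zfp386 was higher, at 10.7 (7.25 ± 2.80 over the 4 libraries). The site beyond Igha was strong in all 4 libraries. Footprints numbered 3, 5, 6 and 5, and 3 stretches of 17, 44 and 11 bases lay in a footprint of at least 3 libraries. Because this site has the highest mean signal in the immunoglobulin loci, its sequence is printed on the minus strand, with those protected stretches in capitals.
3′ flank region: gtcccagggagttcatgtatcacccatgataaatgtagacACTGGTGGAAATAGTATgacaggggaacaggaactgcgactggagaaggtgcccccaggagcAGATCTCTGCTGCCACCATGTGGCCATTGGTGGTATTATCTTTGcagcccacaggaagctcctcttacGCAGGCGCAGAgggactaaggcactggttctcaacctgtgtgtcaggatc

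The next strongest of these flank regions, chr12:113217961-113218200, had 1.86, 2.22, 2.51 and 1.47 (2.01 ± 0.449). A further one at chr12:113216041-113216240 had 1.26, 1.91, 1.72 and 1.03 (1.48 ± 0.408). At chr12:113222821-113223060 library 3 was the lowest, with 0.797 against 1.15, 1.96 and 1.36 in libraries 1, 2 and 4. The flank as a whole summed to 18.3, 23.1, 23.1 and 13.4, so libraries 2 and 3 were equal there. Its 9 recurrent regions had a median ratio of library 3 to the mean of the others of 1.31, and none exceeded 2.

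The constant genes themselves, a stretch of 168 kb from Igha to Ighm, held no recurrent region. Ighd, the gene of the delta chain, had a peak of 1.63 in library 3 and none in the others. Ighg1, encoding a gamma chain used after class switching, had a peak of 0.266 in library 3 alone. The other 6 heavy constant genes, Igha, Ighe, Ighg2c, Ighg2b, Ighg3 and Ighm, had none within 1 kb in any library.

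Between Ighm and the J cluster, the intron known for the heavy-chain intronic enhancer held 8 regions in 5.78 kb, 2 of them recurrent. Chr12:113427413-113427640, which lies 987 bases downstream of Ighj4 and is the peak that made Ighj4 recurrent, had a signal of 0.905, 1.32, 1.74 and 1.22 (1.30 ± 0.346). Its neighbour chr12:113426741-113426980 had 0.811, 0.926 and 0.772 in libraries 1 to 3 and no peak in library 4. The other 6 regions, between that site and Ighm, were found in library 3 alone, with 0.407 to 0.839. The sequence of the region shared by all libraries is printed on the minus strand because it is the only accessible site of the locus close to a rearranging J segment in all 4 libraries. Capitals mark, in order, an E-box (CAGGTG, here as its reverse complement, bases 42 to 47), the RUNX hexamer (126 to 131), a second E-box (200 to 205) and the octamer (ATGCAAAT, 210 to 217), the site of the OCT factors; all 4 are written as reverse complements in this orientation.
J to C intron region: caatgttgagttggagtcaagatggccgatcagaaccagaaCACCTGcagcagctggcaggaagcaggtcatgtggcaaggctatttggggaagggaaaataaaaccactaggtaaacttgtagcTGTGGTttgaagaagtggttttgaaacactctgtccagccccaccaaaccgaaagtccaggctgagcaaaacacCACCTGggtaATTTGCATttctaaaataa

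That region was the only one of the 47 recurrent heavy regions with the octamer, which 1.53% of 23620 recurrent regions away from promoters (over 1 kb from a protein-coding 5′ end) hold on either strand. The E-box was present in 12 of the 47 (25.5%, against 25.7%). A PU.1 match (GAGGAAGT) was found in 1 (2.13%, against 5.86%). No ETS (CGGAAGT), T-box (AGGTGTGA) or kappa B match was found, against 3.65%, 2.64% and 2.77%. With shares this low, few matches would be met among 47 regions. The median width was 220 bases in the heavy locus and 240 in the genome. The shares for the E-box were thus alike in the locus and in the genome.

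Within the D and J cluster, 1 peak of 0.482 in library 3 spanned the neighbourhood of Ighd4-1, Ighj1 and Ighj2, which are therefore not independent of each other. A site in all 4 libraries, chr12:113487781-113488000, lay 5698 bases from Ighd1-1, on the side of the V segments, with 1.35, 1.42, 1.44 and 0.625 (1.21 ± 0.391). It held a match to the motif of CTCF, the insulator protein, in an interval known for the CTCF-bound control region between V and D. In the gap between the last annotated D and the first V segment, the only region was at chr12:113578341-113578516, 75 bases downstream of Ighv5-2, with 0.529, 0.463 and 0.274 in libraries 1 to 3 and no peak in library 4.

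**Figure D2:**
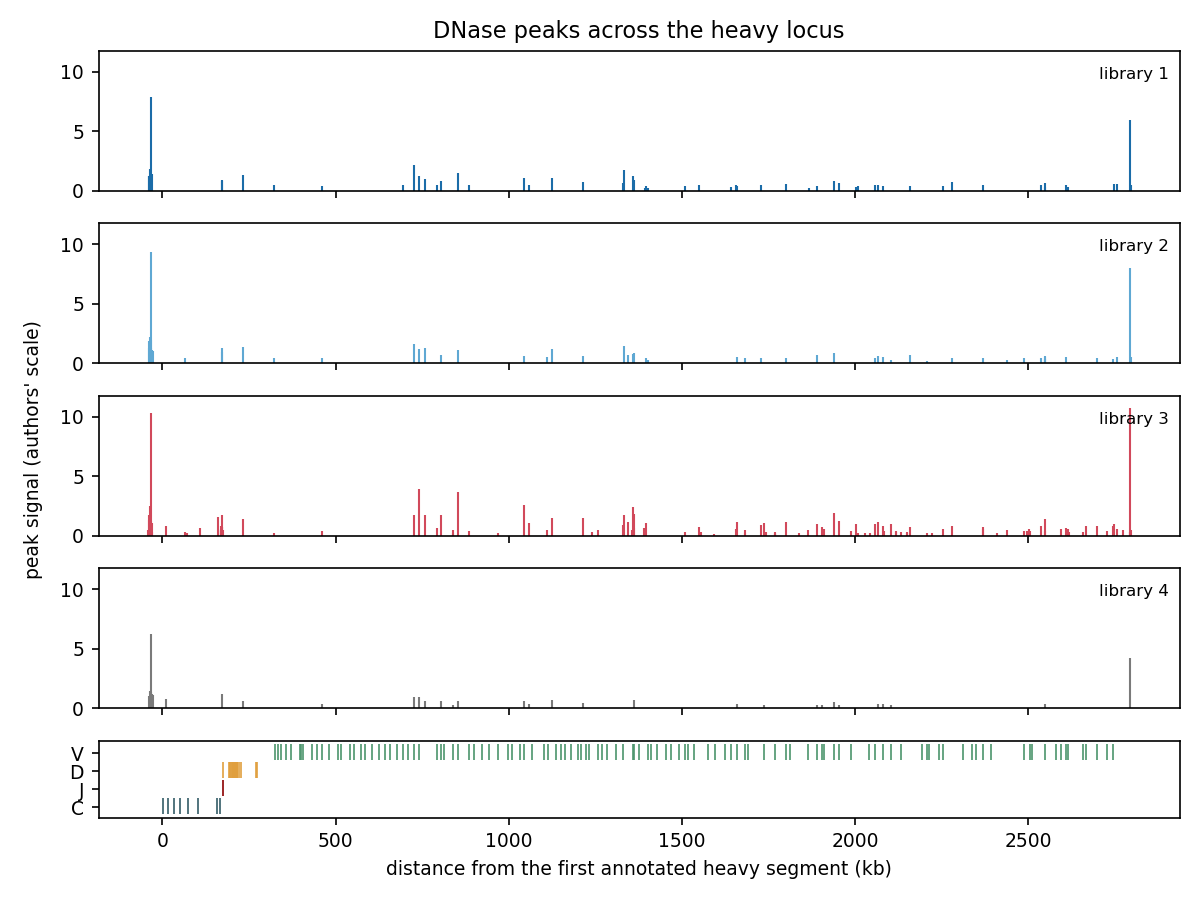
Peak signal on the authors' scale (y axis) of each merged region across the heavy locus, by distance from the first annotated segment, Igha (x axis, kb), in the 4 libraries; ticks at the bottom mark V, D, J and C segments. The tall site left of 0 is the 3′ flank region (6.22 to 10.3), the tall site at the right end overlaps the gene Zfp386, outside the segments, and the lower sites of the V array are most numerous in library 3.

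The V array of the heavy chain was divided into equal parts of 807 kb. The part nearest to the D segments held 16 regions with 9 recurrent, 8 of them in all 4 libraries. The middle part held 36 with 9 recurrent, and the part farthest from D held 43 with 13 recurrent, each with 4 in all libraries. Regions present in library 4 numbered 10, 6 and 6 from the near to the far part, and those in library 3 numbered 15, 32 and 42. The 2 libraries thus differed most in the far part.

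At the heavy V segments, peaks lay over the 3′ end more often than over the promoter, and a further 10 of the 31 recurrent regions of the V array covered no signal sequence. In the window from 250 bases before to 50 after the 5′ end of a heavy V segment, 0, 0, 2 and 1 of 115 segments had a peak in libraries 1 to 4. Over the signal sequence, counts were 23, 21, 45 and 15, and 17 segments were recurrent there. Kappa V promoter windows were open in 0, 2, 0 and 0 of 102, and kappa signal sequences in 0, 1, 1 and 0. T cell receptor V segments, whose signal sequences have the same long spacer, had a peak there in 0, 1, 3 and 1 of 144.

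By the letters of the signal sequence, the heavy V segments fell into distinct sets. A signal sequence (at least 11 of 16 bases matching the heptamer and nonamer) was found for 103 of 115, and 46 of these held ACCACA. Of these 46, a peak lay over the signal sequence of 18, 17, 36 and 13 in libraries 1 to 4, of 37 in at least 1 library and of 14 in at least 3 (30.4%). Of the 57 without it, 5, 4, 7 and 2 had such a peak, 8 in any library and 3 in at least 3 (5.26%). Leaving library 3 out, 23 of the 46 and 6 of the 57 had a peak in at least 1 library. The hexamer was present in 39 Ighv1, 4 Ighv9 and 3 Ighv14 segments and in no other family, so its presence and the family go together. Of the 81 heavy V pseudogenes, 17 had a signal sequence with the hexamer, of which 7 had a peak over it in any library, against 1 of the 17 whose signal sequence lacked it. By library these were 3, 1, 7 and 1 with the hexamer, so all 7 had a peak in library 3, and 1, 1, 1 and 1 without it. In at least 3 libraries the counts were 2 of 17 and 1 of 17. The hexamer was found in no kappa or lambda V signal sequence, and in 8 of 141 T cell receptor V signal sequences, of which none had a peak.

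Within the Ighv1 family alone, 31 of 39 segments with the hexamer had a peak over the signal sequence in at least 1 library, and 1 of 12 without it did. By library, 13, 13, 30 and 9 of the 39 had such a peak in libraries 1 to 4, so most of the 31 rest on library 3. In at least 3 libraries 10 of the 39 had one. For the 12 without the hexamer the counts were 0, 0, 1 and 0, and none was open in at least 3. A set of 10 Ighv1 segments, Ighv1-18, Ighv1-19, Ighv1-20, Ighv1-22, Ighv1-26, Ighv1-31, Ighv1-34, Ighv1-36, Ighv1-37 and Ighv1-43, differed from the hexamer by C2A, counted from its first base. None of the 10 had a peak there in any library. They lie together, from chr12:114682632 to 114946383, and in this stretch all 3 hexamer-bearing segments were open in at least 1 library, with 1, 1, 3 and 1 open in libraries 1 to 4. Near-identical copies limit what short reads can show. The share of 36-base words within 100 bases of the 3′ end that occur once on chromosome 12 had a median of 41.5% for the 10 segments, 38.0% for the 37 open hexamer-bearing segments and 45.0% for the 9 closed ones. The sources used here do not give the length of the authors' reads, so reads lost to such copies were not measured.

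**Figure D3:**
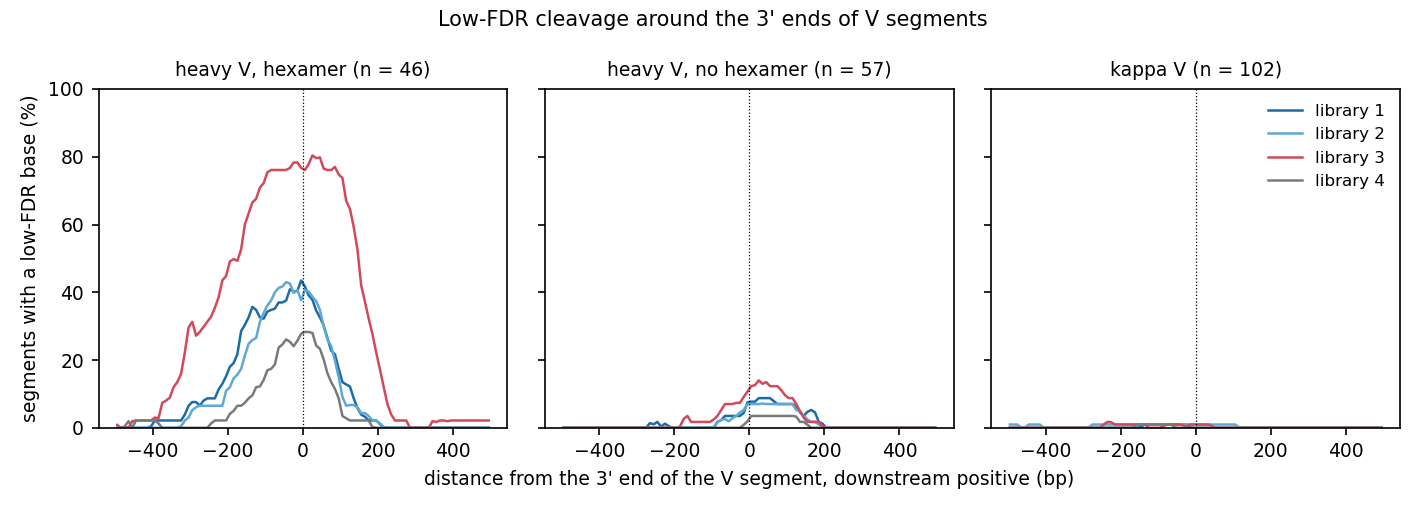
Percent of V segments with a base of low cutting FDR (y axis) at each distance from the V segment's 3′ end (x axis, bp, averaged over 10 bp) for heavy V segments with the hexamer, heavy V segments with a signal sequence that lacks it, and kappa V segments; lines are libraries. Over the first 50 bases downstream the means were 37.2%, 38.3%, 78.7% and 26.4% with the hexamer and 8.35%, 7.05%, 13.1% and 3.51% without it, in libraries 1 to 4.

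Base by base, the low-FDR cutting had its maximum near the boundary of the V segment and its signal sequence. For the hexamer-bearing segments it reached 43.5%, 43.5%, 80.4% and 30.4% of 46 segments in libraries 1 to 4, at 21, 52 and 3 bases inside the 3′ end in libraries 1, 2 and 4 and at 17 bases beyond it in library 3. For kappa V segments the maximum was 0.980% to 1.96% of 102. A footprint overlapped the hexamer itself in 6, 3, 13 and 4 of the 46 segments, fewer than had a peak.

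The members with the highest mean signal were Ighv14-2, Ighv9-2 and Ighv11-1. Without library 3 the order turned, with means of 1.58 for Ighv11-1, 1.14 for Ighv14-2 and 1.10 for Ighv9-2. Ighv14-2 (chr12:113994469-113994898) had a peak signal of 1.22, 1.22, 3.92 and 0.990 in libraries 1 to 4 (1.84 ± 1.39), centred 2 bases inside its 3′ end. Ighv9-2 (chr12:114109001-114109430) had 1.50, 1.13, 3.69 and 0.654 (1.74 ± 1.34). Both stood far higher in library 3 than in the rest. Ighv11-1 (chr12:113981879-113982341) had 2.14, 1.66, 1.73 and 0.942 (1.62 ± 0.497), with library 1 the highest, and its site held a CTCF match and not the hexamer.

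Ighv9-4 followed with 1.12, 0.654, 2.56 and 0.586 (1.23 ± 0.917), and Ighv1-11 with 1.23, 0.806 and 2.39 in libraries 1 to 3 and no peak in library 4 (1.11 ± 0.997). Ighv1-12, which lies next to Ighv1-11, had 0.917, 0.846, 1.82 and 0.692 (1.07 ± 0.509). These and the 4 that follow are V segments of the hexamer set, and library 3 was the highest in each. Ighv1-54 had 0.811, 0.856, 1.95 and 0.567, and Ighv14-3 had 0.823, 0.695, 1.75 and 0.586. Ighv1-74 and Ighv1-39 closed the set of 10 strongest, with 0.658, 0.644, 1.42 and 0.404 for the former and 0.458, 0.514, 1.19 and 0.394 for the latter. The remaining 10 recurrent heavy V segments had means of 0.317 to 0.608.

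CTCF matches were found at other sites in the array, at a share near that of the genome's distal regions. Of the 31 recurrent regions there, 18 covered a signal sequence with the hexamer, 10 others held a CTCF match, and 3 held neither. Over all 31, ACCACA was present in 74.2% against 31.8% of the 23620 distal recurrent regions of the genome, and a CTCF match in 32.3% against 29.8%. Of the 10 CTCF-type sites, 3 lay just downstream of a V segment, at Ighv2-6, Ighv11-1 and the pseudogene Ighv4-2, with centres 42, 58 and 73 bases beyond the 3′ end. The other 7 lay 810 to 8241 bases from the nearest V segment or pseudogene, on its upstream side. A match lay within 150 bases downstream of 32 heavy V segments, and in 5 of them a peak lay over the signal sequence in any library. Of all 115 heavy V segments, 47 had such a peak in any library. Peaks over the match itself were not counted for these 32. Downstream of V segments and near Ighd1-1 the matched stretches read as follows, with the match in capitals and 15 bases on either side, the first 3 on the minus strand and the last on the plus strand.
Ighv11-1 CTCF match: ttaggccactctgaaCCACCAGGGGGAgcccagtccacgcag
Ighv2-6 CTCF match: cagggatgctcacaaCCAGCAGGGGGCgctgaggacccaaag
Ighv5-2 CTCF match: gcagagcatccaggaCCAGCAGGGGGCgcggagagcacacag
Ighd1-1 CTCF match: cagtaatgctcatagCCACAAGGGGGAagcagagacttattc

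Library 3 was next set against the others at each kind of site. Over the 18 recurrent hexamer sites the median signal was 0.658, 0.644, 1.32 and 0.380 in libraries 1 to 4, and the ratio of library 3 to the mean of the others had a median of 2.70 (1.84 to 5.54), above 2 at 16 of the 18. Over all 36595 recurrent regions of the autosomes and X, this ratio had a median of 1.52 and exceeded 2 at 23.6%. A library without a peak entered these ratios as 0, which raises the ratio. Of the 18 hexamer sites, 17, 17, 18 and 13 had a peak in libraries 1 to 4. The genome's regions were not matched to them in strength. At the 10 CTCF sites the medians were 0.487, 0.569, 0.950 and 0, and the ratio had a median of 1.79, above 2 at 3 of the 10. In the 3′ flank the median ratio was 1.31. The marker promoters, summed by list, had a ratio of 2.72 for natural killer cells, 1.91 for myeloid cells, 1.45 for plasma cells, 1.12 for T cells and 0.887 for B cells. The difference between kinds of site was not tested, since library 3 is a single library.

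**Figure D4:**
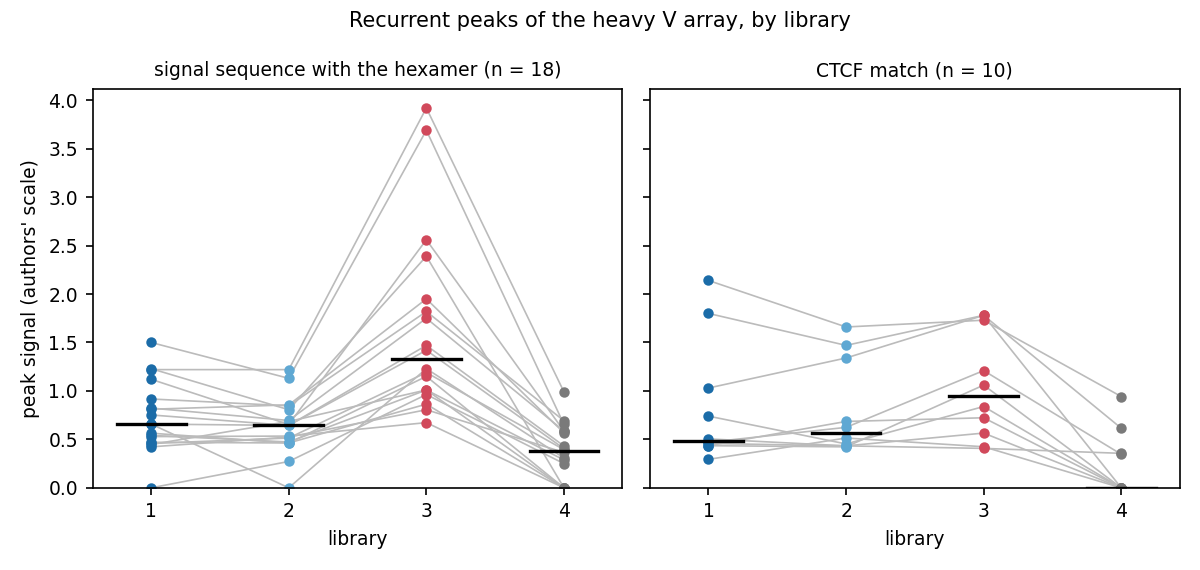
Peak signal on the authors' scale (y axis) in each library (x axis) at the recurrent regions of the heavy V array that cover a signal sequence with the hexamer (18) and at those with a CTCF match (10); points are regions, grey lines join the values of a region and black bars are medians. The hexamer sites have their highest median, 1.32, in library 3, and 6 of the 10 CTCF sites have no peak in library 4.

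In the kappa locus, the recurrent regions lay outside the segments. Chr6:70709361-70709580, in the interval between the V and the J segments, 5293 bases beyond Igkv3-1, had 0.599, 1.09, 1.12 and 0.481 (0.822 ± 0.330). The second region of that interval, chr6:70714301-70714580, had 0.776, 1.26 and 0.723 in libraries 1 to 3 and no peak in library 4. That 18.4 kb interval therefore held 2 of the 5 recurrent kappa regions. Another, chr6:70768861-70769080 with 1.25 ± 0.249, overlaps the gene Rpia, and the last 2 lay in the outer flank (0.514 ± 0.388) and, in the V array, 19985 bases from the nearest segment or pseudogene (0.299 ± 0.202). The J cluster, the J to C intron, known for the kappa intronic enhancer, and Igkc had no peak and no footprint in any library. Beyond Igkc, where the kappa 3′ enhancers are known to lie, library 2 had a peak of 0.503 at 8835 bases and libraries 2 and 4 had 0.564 and 0.548 at 17106 bases.

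The 6 open kappa V segments were weak and did not recur. Igkv4-58 was the only one in more than 1 library, with 0.329 and 0.514 in libraries 1 and 2. Igkv15-103 and Igkv12-46 were open in library 2 alone (0.242 and 0.262), Igkv4-80 and Igkv4-51 in library 3 alone (0.150 and 0.174), and Igkv18-36 in library 4 alone (0.279).

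In the lambda locus, the only peak near a segment was that of 0.442 in library 4 within Iglc2 and near Iglj2. The recurrent regions lay away from the segments. Chr16:19146681-19146900 had 0.682, 0.916, 0.208 and 0.557 (0.591 ± 0.296), and its neighbour chr16:19146325-19146621 had 0.376, 0.584 and 0.404 in libraries 1, 2 and 4. Chr16:19179261-19179560 had 0.423, 0.936 and 0.769 in the same 3 libraries. Library 3 had no peak at the latter pair and the lowest value at the first.

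**Figure D5:**
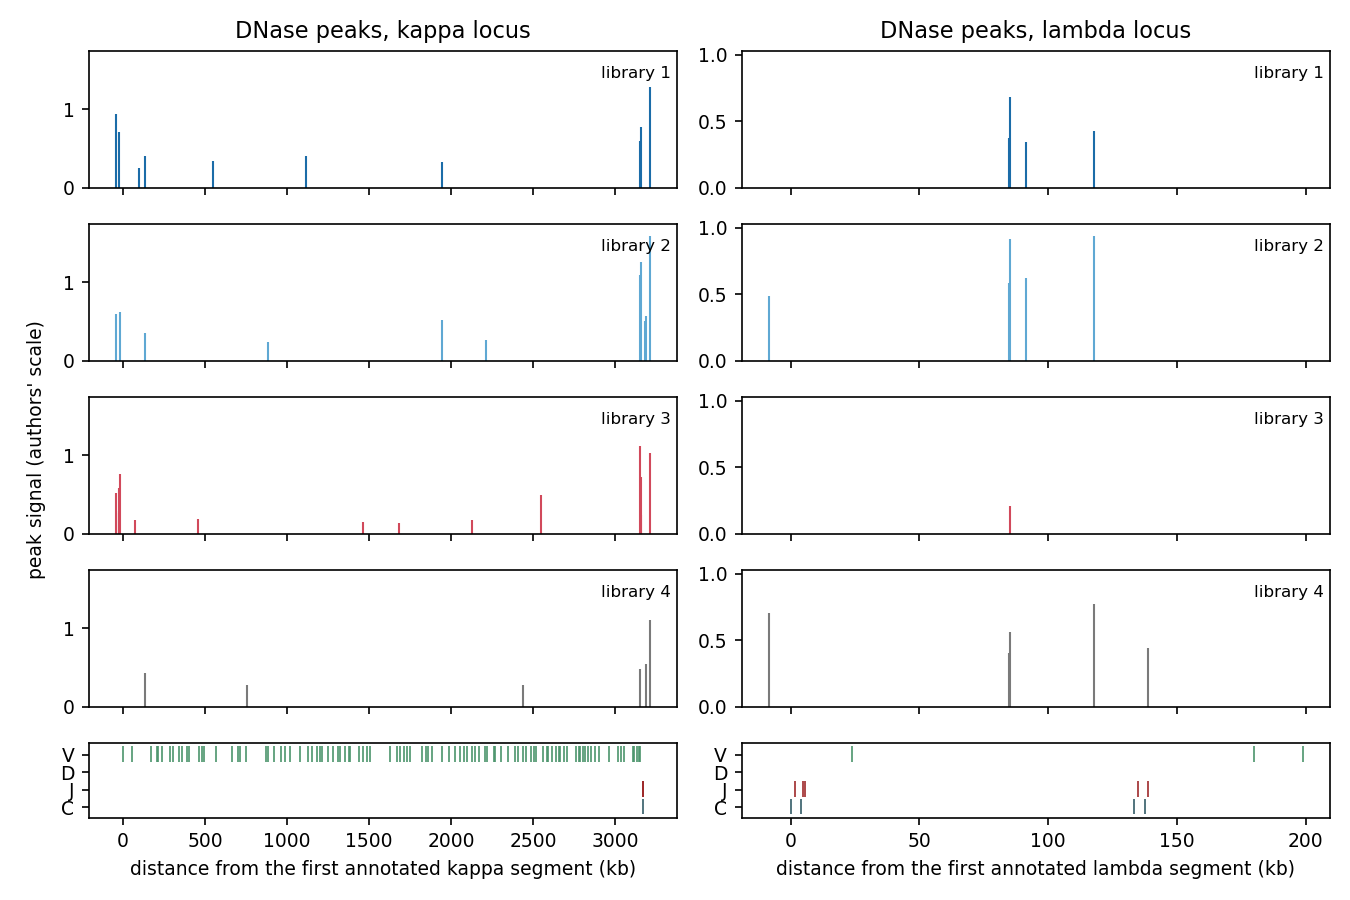
Peak signal on the authors' scale (y axis; the scale differs between the panels of the loci) across the kappa and lambda loci, by distance from each locus's first annotated segment (x axis, kb), in the 4 libraries; ticks mark V, D, J and C segments. Kappa V segments have no peak above 0.514, and library 3 has a single lambda peak, of 0.208.

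Genes that act on the segments were read at their promoters, where 50.4% of all protein-coding genes had a peak in at least 3 libraries. Of 16 genes of V(D)J recombination, 12 had a peak within 1 kb of the 5′ end in all 4 libraries and 4 had none in any: Rag1 and Rag2, the recombinase, Dntt, the terminal transferase that adds bases at the joints, and Xrcc6, which encodes Ku70. For Xrcc6 the nearest peak lay 1965 to 1991 bases from the annotated 5′ end in each library, so its listing rests on the 1 kb window, and for Dntt it lay 1725 to 1848 bases away. At Rag2 the nearest peak was 1358 bases away in library 3 and 4202 to 4222 in the others. The 12 open genes encode parts of general DNA repair and chromatin proteins, led by Hmgb2 (18.6 ± 5.38), Hmgb1 (17.8 ± 3.95), the kinase Atm (16.2 ± 5.13) and Prkdc (12.7 ± 2.72), the catalytic subunit of DNA-PK.

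Of 9 genes of class switching and somatic hypermutation, 7 were open in all 4 libraries. Among them were Apex1, an endonuclease of base excision repair (11.9 ± 3.95), and Ung, the uracil glycosylase that removes uracil from DNA (6.05 ± 1.33). Among 20 genes of factors that act on the loci, 19 were open in at least 3 libraries, led by Yy1 (12.8 ± 3.50), and Spib in none. Of 14 partners of surface immunoglobulin, 5 were open in at least 3 libraries. The kinase gene Syk, shared with natural killer cells, stood highest (4.37 ± 2.62), followed by Vpreb1 (4.35 ± 0.861), whose 5′ end lies within 1 kb of that of Top3b, so the peak cannot be assigned to either. Cd79a, the signalling chain of the B cell receptor, had 1.23 and 1.35 in libraries 2 and 4 and no peak in libraries 1 and 3.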

How the data were processed

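DNase-seq was read in 4 libraries of 1 group, numbered by the labels' biological replicate number. The authors derived, per library and on mm10, 2 peak lists with a signal per peak whose scale is not stated, footprints, and per-base false discovery rates of cutting (a p-value of the adjusted kind, listed below 0.05), per the labels and the deposited readme texts. Sources used here name no aligner, caller or version. The longer peak list was used, without rescaling. Peaks were overlapped with GENCODE vM21 segments extended by 1 kb and with loci extended by 50 kb. Overlapping peaks of the libraries were merged into regions, and recurrent means at least 3 libraries. Motifs were exact matches on both strands. Signal sequences were searched from 3 bases inside to 6 beyond the annotated V end, with spacers of 22 to 24 (kappa 11 to 13) bases. Sequences are from RefSeq GRCm38.p6. Interval counts were tested on simulated data. Python 3.11.15, numpy 2.4.6 and pandas 2.3.3 were used. Genes named with values were every D, J and C segment with a peak, the 10 V segments per locus with the highest recurrent signal, the strongest recurrent regions, and the highest or wholly closed promoters of each list. The segments and lists were chosen with earlier results of these data known. Alternatives varied the list, window, flank, number of libraries, FDR and scaling. Labels do not say that the libraries are separate animals, and peak lists hold no reads, so no counting interval is given. Some genes of the lists are counted but not reported here by name.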

Additional observations from a re-analysis of the deposited data

Results flagged for a closer look

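Of 33 sets of 4 library values examined, 4 held a value whose gap to the nearest other library took up nearly the whole range of the group, and in all 4 it was library 3 that stood highest. Chance flags about 1 in 20 groups of this size where the values are independent and normally distributed. The sets flagged here include a count, and a region and a segment that share 1 site, so that rate need not hold for them. The heavy J segments with a peak numbered 3 in library 3 and 1 in each of the others. The region over the 3′ end of Ighv14-2, and with it the segment Ighv14-2, had a signal of 3.92 in library 3 against 1.22 in the next library. The segment Ighv1-39 had 1.19 in library 3 against 0.514. The peak counts and the natural killer marker promoters were also highest in library 3, and their part in these values was not tested.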

How the results depend on the processing

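The 21 segments with a recurrent peak became 7 with the shorter peak list, 64 with a peak in at least 1 library, 13 in all 4 and 13 in all of libraries 1, 2 and 4 (a count added after seeing the data). They ranged from 23 to 35 with each library left out in turn, where 2 of 3 libraries had to hold the peak. The highest came without library 4. Windows of 0 to 2500 bp gave 19 to 24. The 55 recurrent regions of the 3 loci became 18 with the shorter list, 162 in at least 1 library and 28 in all 4, and 61 to 80 with a library left out. Footprints near 12 segments became 51 in at least 1 library, 5 in all 4 and 5 when they had to overlap the segment, and 12 to 27 with a library left out. Low-FDR bases near 25 segments became 69 in at least 1 library, 15 in all 4 and 10 with an FDR below 0.001, and 27 to 36 with a library left out. The summed signal of the 3 loci, 76.9 ± 38.6, had means of 59.4 to 90.3 with a library left out, 55.9 with the shorter list and 45.0 with no flank, and the ratio of library 3 to the mean of the others, 2.18, stayed between 1.30 and 3.10 over the scalings, lists and flanks. In the kappa locus alone this ratio, 1.36, turned to 0.821 as a share of each library's summed signal. The cause of these shifts was not tested. Signal sequences with the hexamer and a peak numbered 14, and 15 to 21 with a library left out, where those without it numbered 3, and 3 to 5. No paired analysis was possible because there is 1 group. The depth of the alignments is unknown from peak lists, and a missing peak in library 4, the list with the fewest peaks, does not show a closed site.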
